A study of Mus musculus with 46 samples.

Results

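The miRNAs described here are mmu-miR-192-5p, mmu-miR-194-5p, mmu-miR-148a-3p and mmu-miR-802-5p, which are known to be enriched in hepatocytes and which, miR-122 apart, are among the best known liver miRNAs. They were taken by name from the deposited table, where they are 4 of 1881 mouse miRNAs. The study stored pieces of mouse heart, liver and brain for 0 to 96 h and then hybridised total RNA to 1-colour Agilent miRNA arrays. All animals were male C57BL6 mice of an Il1a knock-out strain, obtained as fresh cadavers, so that the control pieces carry the deletion too; each organ was cut into 8 pieces. Analysed were 6 liver arrays from storage at 4 °C (0, 1, 3, 12, 24 and 48 h) and 8 from storage at room temperature (RT, 18–20 °C per the methods; 0, 1, 3, 6, 12, 24, 48 and 96 h). There were also 7 heart arrays at 4 °C (1 to 96 h) and 8 at RT, and 8 brain arrays at each temperature. Each array held 1 piece. Per the methods, the hybridised pieces of all 3 tissues came from 1 animal at each temperature. Per the file headers, the arrays of a tissue and temperature lay on 1 slide. Temperature and animal are thus confounded, and within a tissue the slide with them, no time point has a replicate, and p-values measure the spread between pieces rather than between animals. The RNA integrity number (RIN) runs from 10 for intact to 1 for degraded RNA.

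A miRNA is cut from a hairpin precursor and acts on messenger RNAs mainly through its seed, the bases 2 to 8 from its 5′ end. In liver, miR-148a is known for regulating the low density lipoprotein receptor, miR-802 for effects on glucose metabolism, and miR-192 and miR-194 for their dependence on hepatocyte nuclear factors. miR-192 and miR-194 are also abundant in gut and kidney epithelium. Levels are given below as log2 values after variance stabilizing normalization (VSN), and a difference of 1 means a doubling where signals are well above background. They serve to compare arrays for 1 miRNA and not 1 miRNA with another.

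The mature sequences are printed because the probes tell related miRNAs apart by few bases, and because shared seeds decide which other miRNAs are described with the members. They are RefSeq's for GRCm38.p6 with the seed in capitals, and all 4 members and the 9 other arms and seed relatives were found there by name. The members are followed by the seed relatives of miR-192-5p and miR-148a-3p and by the other arm of the miR-192 hairpin.
mmu-miR-192-5p: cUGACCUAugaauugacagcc
mmu-miR-215-5p: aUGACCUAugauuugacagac
mmu-miR-192-3p: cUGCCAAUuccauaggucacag
mmu-miR-194-5p: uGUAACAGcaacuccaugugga
mmu-miR-148a-3p: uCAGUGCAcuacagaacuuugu
mmu-miR-148b-3p: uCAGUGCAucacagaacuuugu
mmu-miR-152-3p: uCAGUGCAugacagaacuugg
mmu-miR-802-5p: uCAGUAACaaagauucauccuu
miR-192-5p and miR-215-5p carry the same base at 18 of 21 positions counted from the 5′ end, miR-148a-3p and miR-148b-3p at 20 of 22, and miR-148a-3p and miR-152-3p at 18 of the 21 that the latter has. No other mature miRNA in that table has the seed of miR-194-5p or miR-802-5p. The mature miR-192-5p lies on chr19:6264857-6264877 on the plus strand. Its hairpin gene Mir192 begins 115 bases after the end of Mir194-2 on the same strand, and Mir194-2 is 1 of the pair of genes that give an identical miR-194-5p (chr19:6264658-6264679). The other gene, Mir194-1, gives it from chr1:185313325-185313346 and lies 195 bases before Mir215. miR-148a-3p lies on chr6:51269829-51269850 on the minus strand and miR-802-5p on chr16:93369737-93369758 on the plus strand.

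Detection, as called by the scanner software, already set the tissues apart for 1 member. miR-192-5p, miR-194-5p and miR-148a-3p were detected on all 45 arrays. miR-802-5p was detected on 14 of 45, which were the 14 liver arrays, and on none of the heart or brain arrays. Across the series the arrays detected between 268 and 798 miRNAs, with a summed signal of 153088 to 541770 units. The liver pieces at 0 h were dim, with 268 detected miRNAs and 170419 units at 4 °C and 310 detected miRNAs and 210659 units at RT; the piece of 24 h at 4 °C had the lowest sum of all. No miRNA spot was saturated. miR-122-5p, the defining miRNA of hepatocytes, was at 11.14 or higher on every liver array and at 7.34 or lower elsewhere, miR-1a-3p of muscle at 13.60 or higher in heart and 7.81 or lower elsewhere, and miR-124-3p of neurons at 12.93 or higher in brain and 4.57 or lower elsewhere. The tissue labels thus matched these markers.

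To compare the tissues with RNA of similar quality, the 33 arrays with a RIN over 6 were used, 6 of liver, 13 of heart and 14 of brain. All 4 members were higher in liver than in either of the other tissues. Of the 6 liver arrays 5 came from the animal stored at 4 °C, and the pieces of an animal are not independent. The fit held the slide as a random block, whose estimated correlation was 0.0197. It assumed 1 spread per miRNA for all tissues. The SD of the members was 0.69 to 1.02 in liver and 0.25 to 0.47 in heart and brain. The SEs and p-values of the liver differences are therefore likely too small.

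miR-192-5p, whose gene neighbours Mir194-2, ran from 9.15 to 11.94 in liver with a median of 11.24, from 4.91 to 5.78 in heart with a median of 5.47, and from 4.00 to 5.86 in brain with a median of 4.63. Liver did not overlap with either tissue. The mean was 10.96 ± 0.98 (SD, n = 6) in liver, 5.34 ± 0.29 (n = 13) in heart and 4.64 ± 0.47 (n = 14) in brain. Liver exceeded heart by 5.63 ± 0.27 (SE), or 49.4-fold, with a limma adjusted p of 1.01e-18, and brain by 6.32 ± 0.27, or 80.1-fold (limma adjusted p = 5.68e-21).

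miR-194-5p spanned 8.42 to 10.23 in intact liver (median 9.98), 4.69 to 5.65 in heart (median 5.33) and 4.65 to 5.49 in brain (median 5.10). Heart and brain covered nearly the same range, and the lowest liver array was above both. The difference to heart was 4.46 ± 0.20 (SE), a factor of 22.0 (limma adjusted p = 1.08e-19), and that to brain 4.65 ± 0.20, a factor of 25.0 (limma adjusted p = 5.44e-21).

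miR-148a-3p showed the smallest liver excess of the members. Its intact arrays lay between 8.06 and 11.07 in liver (median 10.15), between 7.18 and 8.35 in heart (median 7.67) and between 4.91 and 6.31 in brain (median 5.88). The lowest liver array, that of 0 h at 4 °C, fell inside the range of heart. Liver was 2.27 ± 0.29 (SE) above heart, or 4.84-fold, and 4.20 ± 0.28 above brain, or 18.3-fold (limma adjusted p = 2.82e-08 and 2.29e-15).

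miR-802-5p measured 4.41 to 6.86 in intact liver with a median of 6.13. Its signal in heart and brain was not well above background on any array, so that only bounds can be given. For bounds after VSN, each heart and brain array was set at the lowest level of any miRNA detected on it. Intact liver was then at least 22.3-fold higher than heart and at least 25.2-fold higher than brain. These bounds were computed for that scaling only. miR-802-5p met the filter of detection on at least 5 arrays through liver alone, so a test of its liver excess is largely settled by that filter. The differences of 5.28 and 5.42 in the fit to the measured values are given as a description.

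The size of the liver excess depended on the scaling between arrays, while its direction and call did not in the 7 normalizations run. Against heart it ranged from 35.6-fold to 101-fold for miR-192-5p, from 16.2-fold to 41.7-fold for miR-194-5p and from 3.46-fold to 10.4-fold for miR-148a-3p. Against brain it ranged from 46.5-fold to 362-fold, from 16.7-fold to 96.4-fold and from 12.1-fold to 64.4-fold in the same order. For miR-802-5p, at background outside liver, the fitted excess ranged from 3.92-fold to 219-fold against heart and from 4.33-fold to 249-fold against brain. Its lower ends are below the bounds given for VSN. The median difference of all 815 miRNAs moved with the scaling too, between -0.60 and 0.77 against heart and between -1.29 and 0.82 against brain.

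As background, 9.33% of the 815 miRNAs detected on at least 5 arrays were higher in liver than in heart and 14.6% were higher in liver than in brain by the same test. The median difference over all 815 was -0.60 against heart and -1.12 against brain, while that of the 4 members, with miR-802-5p at its bound, was 4.47 and 4.65. Ordered by the size of the liver excess over heart, the 3 members detected in heart took places 3 (miR-192-5p), 5 (miR-194-5p) and 18 (miR-148a-3p); miR-802-5p, for which only a bound of 4.48 is known, was given no place. Since they were chosen as hepatocyte miRNAs, these places are a description.

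Heart and brain differed for 2 of the 4 members, where 21.8% of the 815 miRNAs were higher in heart. miR-148a-3p was 1.92 ± 0.23 (SE) higher in heart than in brain, or 3.79-fold (limma adjusted p = 2.95e-09), and its ranges in these tissues did not overlap. For miR-192-5p the difference was 0.70 ± 0.22 (adjusted p = 0.00530), with overlapping ranges, and it was no longer past the threshold with all 45 arrays (adjusted p = 0.231). The difference of miR-194-5p was 0.18 with a 95% interval of -0.13 to 0.50. Heart also held miR-122-5p, detected on 15 of 15 arrays at 4.70 to 7.34, while miR-122-3p was detected on 0 of 15. In brain miR-122-5p was detected on 15 of 16 arrays at lower levels, 1.76 to 4.83, and miR-122-3p on 0 of 16. The highest brain value of miR-192-5p, 5.86, was that of the RT piece of 1 h, where the other 15 brain arrays lay between 3.62 and 5.08. Whether the heart signal of miR-122-5p has a part in the heart levels of the members was not tested.

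**Figure D1:**
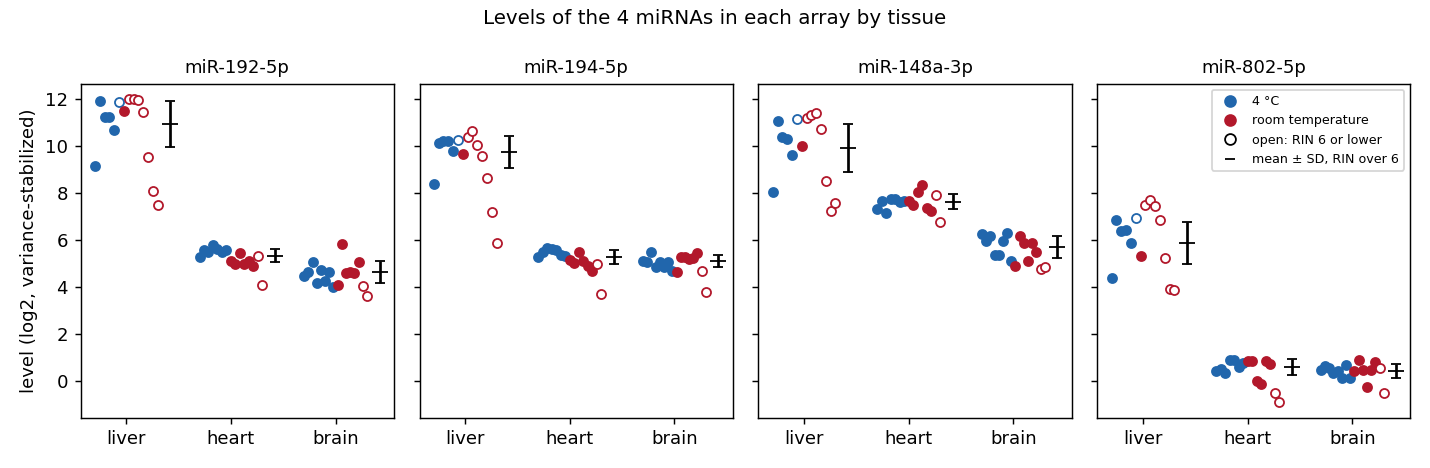
Levels of the 4 miRNAs on each of 45 arrays (log2 after VSN) in liver, heart and brain, with the storage temperature in colour and open points for RIN values of 6 or lower; black bars give the mean ± SD of the arrays with a RIN over 6. Points of a tissue run from 4 °C to RT and within each from the shortest to the longest storage. The RT liver points descend at the right, and miR-802-5p lies below 1 on all heart and brain arrays.

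The other arms and seed relatives were described for comparison; 4 of these 9 miRNAs were detected on 5 or more arrays and 4 on none. Those on none were miR-194-1-3p, miR-802-3p, miR-215-5p and miR-215-3p. miR-192-3p was detected on 12 arrays and miR-194-2-3p on 11, all of them liver. The arm next to miR-194-5p was therefore seen for the gene beside Mir192 and not for the gene beside Mir215. Intact liver was at least 6.34-fold above heart and at least 7.18-fold above brain for miR-192-3p. For miR-194-2-3p, which was detected on 4 of the 6 intact liver arrays, the bounds were at least 2.11-fold and at least 2.39-fold. miR-148a-5p was detected on 2 of 45 arrays.

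The 3 miRNAs with the seed of miR-148a-3p had 3 different orders of tissues. miR-148a-3p was highest in liver. miR-148b-3p was highest in brain, with a mean of 5.60 ± 0.47 (SD, n = 14) against 4.39 ± 0.27 in heart (n = 13) and 3.87 ± 0.75 in liver (n = 6). Liver was below brain by 1.73 for miR-148b-3p (limma adjusted p = 8.88e-08), while its difference to heart did not pass the threshold (-0.52, adjusted p = 0.0675). miR-152-3p was highest in heart, at 7.08 ± 0.32 against 5.56 ± 0.90 in liver and 5.39 ± 0.32 in brain, and liver and brain did not differ beyond their spread (0.17 ± 0.24 SE, limma adjusted p = 0.547).

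**Figure D2:**
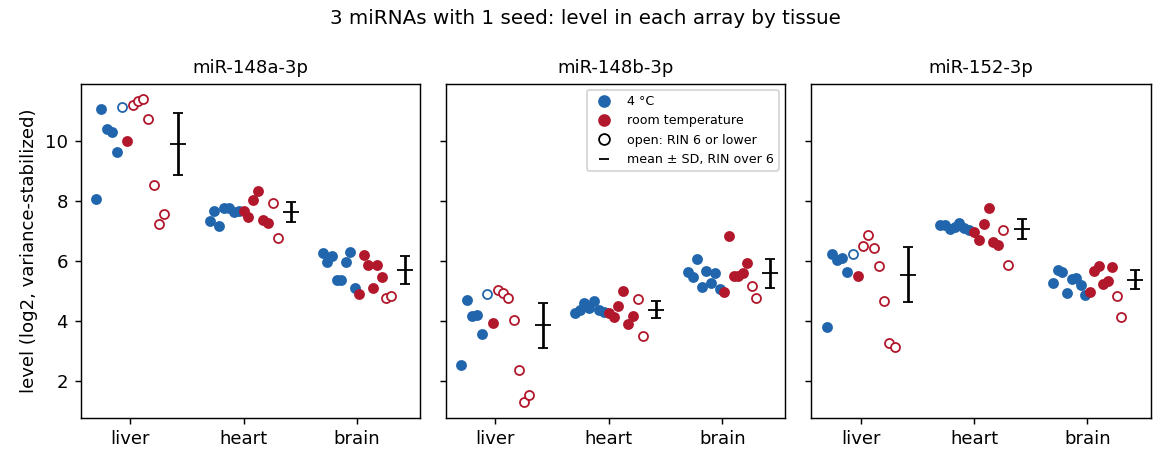
Levels (log2 after VSN) of miR-148a-3p, miR-148b-3p and miR-152-3p, which share a seed, on each array by tissue; colours, open points and bars as in the plot of the 4 miRNAs by tissue. The highest mean of intact arrays is in liver for miR-148a-3p (9.91), in brain for miR-148b-3p (5.60) and in heart for miR-152-3p (7.08). In liver all 3 are lower after 24 to 96 h at RT than after 12 h.

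Storage of liver at RT was followed next. After VSN, all 4 members fell over the 96 h. In an early phase, through 6 h, none was below its level at 0 h. Most miRNAs rose in that phase: 24.3% of the 815 were lower at 3 h than at 0 h and 28.1% at 6 h, with median changes of 0.85 and 0.76. miR-192-5p rose by less than the median at both times, miR-194-5p only at 6 h, and the other members at neither. Before scaling between arrays, the signal at 0 and 96 h was 1526 and 465 units for miR-192-5p and 426 and 151 for miR-194-5p. It was 529 and 487 units for miR-148a-3p and 20.3 and 35.8 for miR-802-5p, the last being higher at 96 h. The courses below are after VSN. At 0, 1, 3, 6, 12, 24, 48 and 96 h, the RIN values of these pieces were 7.1, 6.0, 4.1, 2.8, 2.7, 2.7, 2.4 and 2.3.

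At these times miR-192-5p measured 11.52, 12.02, 12.01, 11.96, 11.46, 9.57, 8.12 and 7.52. It stayed within a narrow band up to 12 h and then dropped at each later time. From its highest value after VSN, at 1 h, to 96 h it fell 22.7-fold. Before scaling its highest signal was that of 6 h, 5219 units.

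miR-194-5p measured 9.68, 10.40, 10.65, 10.04, 9.58, 8.67, 7.21 and 5.90. After VSN its decline began after 3 h and was still going on between 48 and 96 h, for 26.7-fold in all. Before scaling the signal still rose from 1272 units at 3 h to 1377 units at 6 h.

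miR-148a-3p measured 9.99, 11.19, 11.32, 11.41, 10.75, 8.52, 7.24 and 7.59. The largest step was that from 12 to 24 h, a fall of 4.68-fold, and the last value was not below the one before it.

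miR-802-5p measured 5.33, 7.49, 7.72, 7.46, 6.85, 5.24, 3.91 and 3.87. It rose by 2.39 from 0 to 3 h, where the median of all 815 miRNAs rose by 0.85, and it returned to its starting level by 24 h. It was still detected at 96 h.

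Over the period from 12 to 24 h the RIN was 2.7 at either end. The members changed by -1.89 (miR-192-5p), -0.92 (miR-194-5p), -2.23 (miR-148a-3p) and -1.60 (miR-802-5p) while the median over all 815 miRNAs changed by -0.12. In this step 5.52% of the miRNAs fell further than miR-192-5p, 26.1% further than miR-194-5p, 3.07% further than miR-148a-3p and 11.2% further than miR-802-5p. These are single pieces, and this step has no replicate check.

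**Figure D3:**
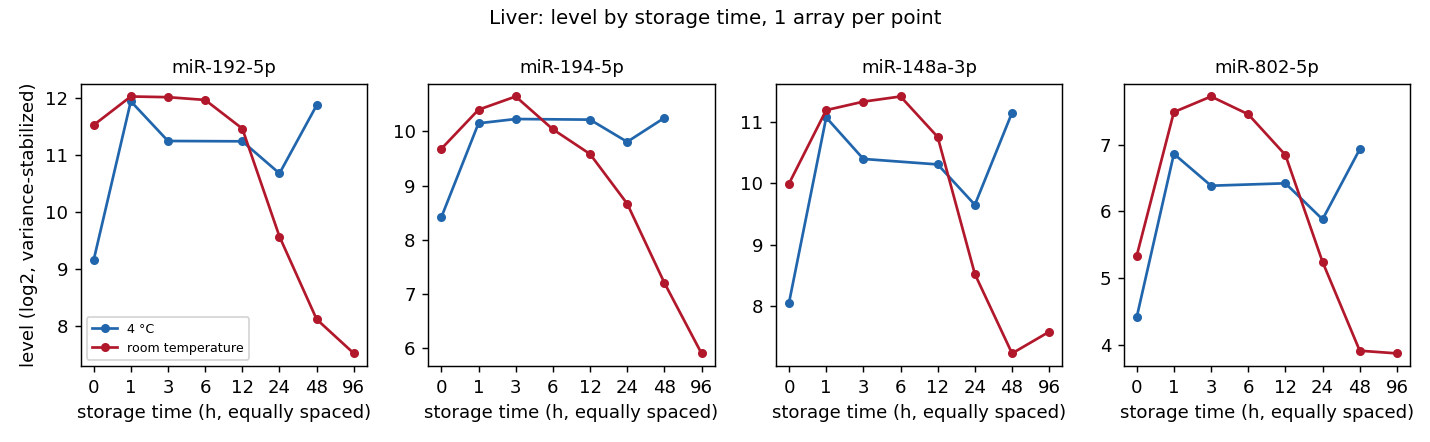
Liver levels (log2 after VSN) of the 4 miRNAs by storage time in h, equally spaced, at 4 °C (blue) and RT (red), with 1 array per point and a separate vertical scale for each panel. At RT every miRNA is highest between 1 and 6 h and lower from 24 h on than at 12 h; at 4 °C the 0 h array is the lowest in each panel.

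A straight line through the RT liver levels fell, per 24 h of storage, by 1.24 ± 0.16 (SE) for miR-192-5p, 1.16 ± 0.11 for miR-194-5p, 1.02 ± 0.19 for miR-148a-3p and 0.91 ± 0.17 for miR-802-5p (limma adjusted p = 2.34e-08, 9.34e-11, 1.26e-05 and 1.79e-05). This gave 4 of 4 members lower, where 34.0% of the 815 miRNAs were lower; the median slope was -1.09 for the members and 0.15 over all miRNAs. The line does not describe the early phase, and its slope depends on the last array. Without the RT liver array of 96 h the slopes were steeper, at -2.03, -1.56, -2.01 and -1.59 in the same order, and all 4 remained called. In a fit without the RT liver arrays of 24, 48 and 96 h, 0 of 4 members were called and the slopes of miR-148a-3p and miR-802-5p were positive.

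The relatives went the same way in RT liver, with 4 of 4 tested members of that list lower. miR-192-3p, from the same hairpin as miR-192-5p, had a slope of -1.28 and was no longer detected at 48 and 96 h. The slopes were -0.92 for miR-148b-3p, -0.91 for miR-152-3p and -0.44 for miR-194-2-3p (limma adjusted p = 0.0451 for the last). Of the hepatocyte markers, both miR-122-5p and miR-122-3p fell. The falls were not limited to hepatocyte miRNAs. Lower too were 4 of 4 leukocyte, 5 of 5 endothelial and stromal and 4 of 4 tested epithelial markers. So were 3 of 4 brain, 2 of 3 red cell and 2 of 4 heart muscle markers, where 34.0% of all miRNAs were lower. The lower heart muscle markers, miR-1a-3p and miR-499-5p, were detected on 2 and 0 of 14 liver arrays, so their slopes are mainly those of background signals. Of the lower brain markers, miR-9-5p was detected on 1 and miR-128-3p on 6 of 14. The third red cell marker, miR-486a-5p, and 1 heart muscle marker, miR-133a-3p, were called higher (slopes 0.40 and 0.25), and the median slope of the heart muscle markers was -0.23. Fewer cells of a type and less RNA per cell cannot be told apart in such tissue pieces. The part of other cells in the members' course was not tested.

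At 4 °C the liver pieces showed no such fall. At 0, 1, 3, 12, 24 and 48 h, miR-192-5p measured 9.15, 11.94, 11.24, 11.24, 10.67 and 11.87. miR-194-5p measured 8.42, 10.15, 10.23, 10.22, 9.81 and 10.25, and miR-148a-3p measured 8.06, 11.07, 10.39, 10.30, 9.65 and 11.14. miR-802-5p measured 4.41, 6.86, 6.39, 6.42, 5.88 and 6.93. The piece of 0 h was the lowest for every member. The later 5 lay close together for miR-194-5p, from 9.81 to 10.25, and further apart for the others, for miR-148a-3p from 9.65 to 11.14. The 48 h piece had a RIN of 3.4, and its miR-148a-3p level of 11.14 was the highest of the 6. The lines had slopes of 0.34 to 0.60 per 24 h, and 0 of 4 members were called by limma, where 2.94% of all miRNAs were called. At an unadjusted p under 0.05 there were also 0 members, against 134 of 815 miRNAs.

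The difference of the RT and the 4 °C liver slopes was tested in the same fit. It was -1.74 ± 0.37 (SE) for miR-192-5p, -1.49 ± 0.26 for miR-194-5p, -1.62 ± 0.44 for miR-148a-3p and -1.40 ± 0.40 for miR-802-5p (limma adjusted p = 0.000491, 7.90e-05, 0.00416 and 0.00625). All 4 members were lower at RT, against 24.5% of the 815 miRNAs. Without the RT array of 96 h the difference of miR-148a-3p was -2.60. This call rests on single arrays: without the 4 °C array of 48 h, 0 of 4 were called (miR-192-5p -1.40, adjusted p = 0.294), and without the RT arrays of 24, 48 and 96 h also 0 of 4. Without the 4 °C array of 0 h the call of miR-802-5p was lost (-0.99, adjusted p = 0.0572).

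In heart and brain at RT the piece of 96 h was the lowest after VSN for each member detected there. The exception was miR-148a-3p in brain, where 48 h was lower (4.77 against 4.86). Before scaling, the 96 h piece did not have the lowest signal of its slide for any of these members. miR-194-5p in heart at RT measured 5.15, 5.02, 5.52, 5.12, 4.91, 4.69, 5.01 and 3.71 from 0 to 96 h, and in brain 4.65, 5.27, 5.31, 5.21, 5.23, 5.44, 4.68 and 3.80. Up to 48 h the values of a tissue lay within 1 log2 unit, and the last stood below them. It was the only member with a called slope, -0.34 ± 0.11 (SE) per 24 h in heart and -0.32 ± 0.11 in brain (limma adjusted p = 0.0137 and 0.0238). Thus 1 of 4 members was lower in each tissue, where 18.8% of all miRNAs were lower in heart and 17.8% in brain. Neither call remained when the 96 h arrays were left out (adjusted p = 0.733 and 0.689). With the 75th percentile over all miRNAs, 3 members were called in each tissue, and with no scaling 0, the slopes of miR-194-5p then being 0.00651 and 0.019.

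At 4 °C, 0 of 4 members had a called slope in heart or in brain, and at an unadjusted p under 0.05 there were also 0. Of all 815 miRNAs limma called 0 in heart (0%) and 0 in brain (0%); at an unadjusted p under 0.05 there were 49 and 45. The slopes of the members detected in these tissues ranged from -0.05 to 0.06 per 24 h in heart and from -0.15 to -0.10 in brain. Those of miR-802-5p, 0.06 and -0.08, are of background signals.

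The RT slopes of liver were steeper than those of the other tissues for most members. Against heart, 3 of 4 differed, by -1.02 ± 0.22 (SE) for miR-192-5p, -0.82 ± 0.16 for miR-194-5p and -0.80 ± 0.27 for miR-148a-3p (limma adjusted p = 0.000744, 0.000177 and 0.0183), where 19.4% of all miRNAs were lower. Against brain, 4 of 4 differed, by -0.71 to -0.92, where 20.7% were lower. Without the RT liver array of 96 h the differences were larger, at -1.81 for miR-192-5p, -1.23 for miR-194-5p and -1.79 for miR-148a-3p against heart and between -1.79 and -1.24 for the 4 members against brain. miR-802-5p was not detected in heart or brain, so that its difference there is that of a liver course and background signals; against heart it was -0.52 (adjusted p = 0.106) and was called without the RT liver array of 0 h (-0.66) or of 96 h (-1.20). Without the RT liver arrays of 24, 48 and 96 h, 0 of 4 were called against either tissue.

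**Figure D4:**
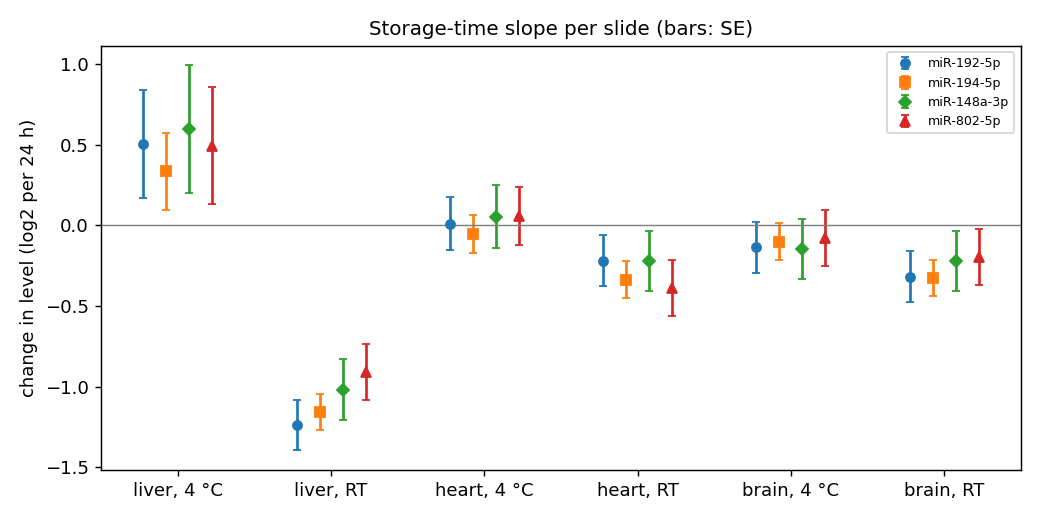
Slope of the level on storage time (log2 per 24 h, bars SE) for the 4 miRNAs on the 6 slides of tissue and temperature. The RT liver slopes lie between -1.24 and -0.91, below all others; miR-802-5p was not detected in heart or brain.

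How far the members follow the RIN was asked in 2 ways. The liver arrays were first divided by their RIN, with 8 at 6 or lower and 6 above; 7 of the 8 and 1 of the 6 were stored at RT. miR-192-5p measured 7.52 to 12.02 (median 11.66) in the low group and 9.15 to 11.94 (median 11.24) in the high group. The low group thus reached both further down and slightly higher, and the same was true of the other 3 members. The differences of the means, low minus high, were -0.40 for miR-192-5p, -0.66 for miR-194-5p, -0.02 for miR-148a-3p and 0.30 for miR-802-5p; the last was negative, from -0.85 to -0.29, under 4 other scalings, and with no scaling the others were positive, from 0.34 to 0.98. By a 2-sided exact Wilcoxon-Mann-Whitney test 0 of 4 were called (adjusted p = 0.829, 0.985, 0.683 and 0.683), where 27.7% of all miRNAs were called. At an unadjusted p under 0.05 in that test there were also 0 members, against 335 of 815 miRNAs, and limma called 0 of 4 too. These p-values do not show that the groups are alike, since the SD of the low group was 1.61 to 1.89. miR-194-5p was called, at -1.27, after scaling to the 75th percentile of the miRNAs detected on all arrays (adjusted p = 0.0248).

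The low group joins the early and the late RT pieces. The RT pieces of 0 to 12 h had a miR-192-5p level of 11.46 to 12.02 at RIN values from 7.1 to 2.7, and those of 24 to 96 h had 7.52 to 9.57 at 2.7 to 2.3. For miR-802-5p the ranges were 5.33 to 7.72 and 3.87 to 5.24. Without the 3 late pieces the difference of low and high was positive for all 4 members, between 0.43 and 1.41, and 0 of 4 were called (adjusted p = 0.122 to 0.385).

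**Figure D5:**
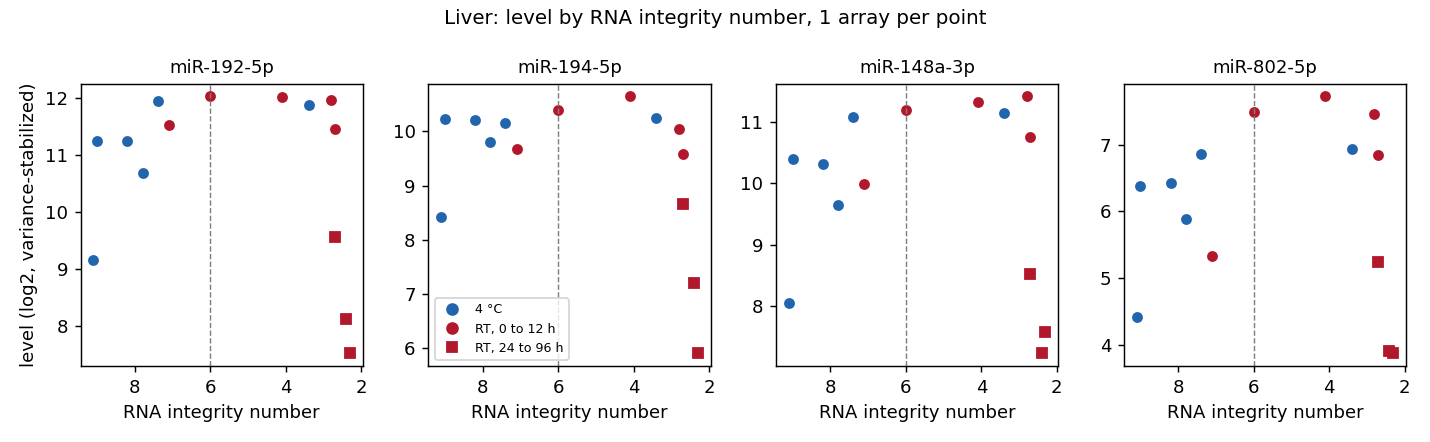
Liver levels (log2 after VSN) of the 4 miRNAs by RIN, falling from left to right, with 1 array per point; squares mark RT storage of 24 to 96 h and the dashed line a RIN of 6. Arrays with a RIN of 2.7 occur at high and low levels, for miR-192-5p at 11.46 (12 h) and 9.57 (24 h).

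The level was then fitted on the RIN within each slide. In liver the slope per RIN unit was 0.16 ± 0.14 (SE) for miR-192-5p, 0.19 ± 0.11 for miR-194-5p, 0.06 ± 0.14 for miR-148a-3p and 0.01 ± 0.12 for miR-802-5p. None of the 4 was called by limma, where 53.6% of all miRNAs were called. At an unadjusted p under 0.05 there were also 0 members, against 475 of 815 miRNAs. In heart and in brain 0 of 4 were called as well, where 48.0% and 39.4% of all miRNAs were. The slopes of the members detected in these tissues were 0.09 to 0.16 in heart and 0.18 to 0.24 in brain. Those of miR-802-5p, 0.23 and 0.14, are of background signals. Over all tissues only miR-194-5p was called, with 0.19 ± 0.07 (limma adjusted p = 0.0161), where 26.1% of all miRNAs had a called positive slope; with each of 3 other scalings 3 members were called, with normexp 4 and with no scaling 0. The liver slopes did not differ from those of heart or brain beyond their error for any member, 0 of 4 in each comparison, where 1.35% and 1.23% of all miRNAs were called.

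The liver slopes on RIN depended on the scaling and on the late pieces. With no scaling between arrays all 4 were negative, from -0.19 to -0.02, and none was called. With quantile normalization 3 members had a called positive slope, miR-192-5p (0.35), miR-194-5p (0.40) and miR-802-5p (0.27). Without the 4 °C array of 48 h miR-192-5p (0.45, adjusted p = 0.0174) and miR-194-5p (0.41, adjusted p = 0.0122) were called in liver, and without that of 0 h miR-194-5p alone (0.27, adjusted p = 0.0351); over all tissues either omission gave 3 calls. Without the RT pieces of 24, 48 and 96 h all 4 slopes were negative, and those of miR-148a-3p (-0.26, limma adjusted p = 0.0142) and miR-802-5p (-0.27, adjusted p = 0.00811) were called, which means higher levels at lower RIN. That direction was common: with all liver arrays 343 of 815 miRNAs had a called negative slope, and the median over all was -0.10. The share of all miRNAs called without these pieces is not given.

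Likeness of pattern over the 45 arrays was measured by the root mean square (RMS) difference of log2 profiles, each centred on its mean. Among the members, miR-192-5p and miR-802-5p lay closest, with 0.56. miR-194-5p lay 0.82 from miR-192-5p and 0.79 from miR-802-5p, and miR-148a-3p lay 1.00 from miR-194-5p, 1.34 from miR-192-5p and 1.43 from miR-802-5p. Outside the members, the 3 nearest miRNAs to each were named. For miR-192-5p they were miR-122-3p (0.71), miR-192-3p (1.13) and miR-194-2-3p (1.60), and for miR-802-5p the same 3 miRNAs (0.96, 1.14 and 1.57). All 3 were detected in liver alone, as was miR-802-5p. RMS differences that involve any of them therefore rest in part on background signals in heart and brain. The median over all tested miRNAs was 3.42 for miR-192-5p and 3.28 for miR-802-5p.

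For miR-194-5p the nearest non-members were miR-192-3p (0.57), miR-193a-3p (0.91) and miR-21a-5p (1.12), the last 2 detected on all 45 arrays. For miR-148a-3p they were miR-192-3p (0.80), miR-10a-5p (0.93) and miR-511-3p (0.95). Like miR-148a-3p, miR-10a-5p and miR-511-3p had a level in heart between those of liver and brain. The medians in liver, heart and brain were 6.54, 5.38 and 1.96 for miR-10a-5p and 4.71, 3.50 and 0.68 for miR-511-3p. In brain miR-10a-5p was detected on 3 of 16 arrays and miR-511-3p on 0 of 16, so their brain medians lie near background. miR-148a-3p was detected on all 16. Arrays of a tissue and temperature share an animal and a slide, so that the likeness is mainly over 3 tissues.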

How the data were processed

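Total RNA of 46 pieces of mouse tissue was hybridised to 1-colour arrays. Per the file headers, the spot intensity values were extracted with Agilent Feature Extraction 10.10.1.1, which subtracts the background and sums the 30 spots of a miRNA. The authors also deposited a table of log2 values after VSN, in which the column medians run from 0.135 to 0.812. As in the study, the 0 h heart piece of the 4 °C series was left out for its low array quality; the study dropped the liver pieces of 6 and 96 h at 4 °C for the same reason, and they were not analysed here. The labels give 12 h where the methods give 14 h, and the labels were followed. The total gene signal was used where a miRNA was called detected, otherwise the sum of its probe signals. VSN was refitted over 45 arrays; over 46 it differed from the deposited values by at most 0.00166. Of 1881 miRNAs, 815 detected on at least 5 arrays were tested.

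limma 3.58.1 (R 4.3.3) tested tissues (33 arrays, RIN over 6, slide as a random block), slopes on RIN within slides and slopes on storage time per slide (45 arrays each); an exact Wilcoxon-Mann-Whitney test compared low with high RIN in liver. p-values were adjusted by Benjamini-Hochberg over all 815 miRNAs, with a threshold of 0.05. The number of arrays limits the precision. Bounds for miRNAs not detected used, per array, the lowest level of a detected miRNA or the own level, if higher.

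Named were the 4 members, their other arms and seed relatives, and for each member the 3 non-member miRNAs with the smallest RMS difference to it. The members and lists were chosen with earlier results of these data known. The difference of the RT slopes between tissues was added after the values had been seen, and so were fits with the animal, or the animal and storage time, as a block, since per the methods the tissues of a temperature are from the same animal. Alternatives covered scaling, background, the detection filter, adjustment, blocks and left-out arrays. Since the files used here hold no mean spot signal, normexp was run on the median spot and background signals with an offset of 50. The scripts were tested on simulated data.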

Additional observations from a re-analysis of the deposited data

Results flagged for a closer look

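In groups of 4 to 10 arrays, an array was named when its gap to the next one took up more of the range than Dixon's 95% value; 24 groups were examined, and chance names about 1 in 20. The 96 h heart array at RT stood below the other 7 for miR-192-5p (4.10, with 59.1% of the range in the gap) and for miR-194-5p (3.71, 54.1%). The 0 h liver array at 4 °C stood below the other 5 for miR-194-5p (8.42, 75.9%). That heart piece had a RIN of 2.2, and the liver piece one of 9.1 with 268 detected miRNAs. These levels are after VSN. Before scaling, the heart array had 35.4 units for miR-192-5p, within the 27.1 to 67.3 of the RT heart arrays. For miR-194-5p it had 26.8 units, above the 23.2 of the 24 h heart array at RT. The liver array had the lowest miR-194-5p signal of its slide before scaling too, 337 units.

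The effect of storage time differed between groups in the same fit. The liver slope at RT minus that at 4 °C, in log2 per 24 h, was -1.74 for miR-192-5p, -1.49 for miR-194-5p, -1.62 for miR-148a-3p and -1.40 for miR-802-5p. At RT the liver slope minus that of heart was -1.02 for miR-192-5p, -0.82 for miR-194-5p and -0.80 for miR-148a-3p. Against brain the differences were -0.92, -0.83 and -0.80 for the same miRNAs and -0.71 for miR-802-5p, which was not detected in brain. Each slope comes from the pieces of 1 animal.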

How the results depend on the processing

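The liver excess over heart and brain was called for all 4 members in every alternative run. For miR-802-5p, which met the detection filter through liver alone, that call is a description. The fall in RT liver was called for all 4 members except without the RT arrays of 24, 48 and 96 h. Without those arrays 0 members were called for the RT liver slope, its difference to 4 °C and its differences to heart and brain. The reversed values were then 0.54 for miR-148a-3p and 1.08 for miR-802-5p in RT liver, 0.59 for miR-802-5p against 4 °C, 0.76 and 1.47 (miR-148a-3p and miR-802-5p) against heart, and 0.76 and 1.28 against brain. Low minus high RIN in liver became 0.90 (miR-192-5p), 0.43 (miR-194-5p) and 1.25 (miR-148a-3p), and the liver RIN slopes became -0.17, -0.079, -0.26 and -0.27 in the order miR-192-5p, miR-194-5p, miR-148a-3p and miR-802-5p, with 2 called. The liver RIN slope then differed from heart for 1 member and from brain for 4. The counts of members in this section stand without the share of all miRNAs called in the same fit. They are therefore no result particular to the members. The cause of these changes was not tested.

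Scaling moved the low minus high RIN difference of all 815 miRNAs, whose median was 0.33 with VSN, 0.06 and 0.10 with the 75th percentile over miRNAs detected on all arrays and over all miRNAs, 1.16 with no scaling, 0.03 with quantile normalization and -0.97 with normexp. miR-802-5p was at -0.29, -0.30, -0.85, -0.47 and -0.27 with both percentiles, quantile, normexp and the brightest probe, and 1 member was called with the first percentile, normexp and the brightest probe. With no scaling, miR-192-5p, miR-194-5p and miR-148a-3p were at 0.60, 0.34 and 0.98, and with a slide block in limma miR-148a-3p was at 0.47. On the RT liver slide alone, 7 low arrays against 1 high array differed by -1.14, -0.76, -0.28 and 0.74 in the same order of members.

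For the slope on RIN over all tissues, both percentiles, quantile normalization and the brightest probe called 3 members, normexp 4, a tissue block or no block 2, and no scaling, Bonferroni, RIN over 6 alone, the heart array included and the fit without degraded heart and brain arrays 0; miR-194-5p was reversed with no scaling (-0.021), no block (-0.28) and RIN over 6 alone (-0.16). In liver the first percentile and the brightest probe called 2, all miRNAs or a tissue block 1, quantile and normexp 3; the slopes were reversed with no scaling (-0.042, -0.015, -0.15, -0.19) and with RIN over 6 alone (-0.91, -0.53, -0.95, -0.80). In heart both percentiles, quantile and the brightest probe called 1, normexp and each tissue alone 3; in brain the percentile over all miRNAs, quantile and normexp called 1 and each tissue alone 2.

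For RT heart slopes, both percentiles, quantile and the brightest probe called 3 members, normexp 4, each slide alone 2. For RT brain slopes the first percentile and the brightest probe called 2, the other percentile, quantile and normexp 3. No scaling, Bonferroni, log2 hours, leaving out 96 h and including the heart array called 0 in either; miR-194-5p was reversed with no scaling, at 0.00651 in heart and 0.019 in brain. The RT minus 4 °C liver slope was called for 2 with no scaling and with Bonferroni, and RT liver minus brain for 1 with Bonferroni. Heart minus brain was called for 1 with Bonferroni, all arrays, slide means or the heart array included; miR-802-5p was at -0.027 with no scaling and -0.038 with quantile, and miR-194-5p at -0.043 with the heart array.

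Leaving out each liver array in turn, the members called ranged from 1 to 3 for the RIN slope over all tissues, from 0 to 2 for that in liver (2 without the 4 °C array of 48 h) and from 0 to 4 for RT minus 4 °C. Low minus high ranged from -0.76 to 0.040 for miR-192-5p and from -0.39 to 0.36 for miR-148a-3p, and the liver RIN slope from -0.030 to 0.30 for miR-148a-3p and from -0.082 to 0.17 for miR-802-5p. Pairing the tissues by animal, or by animal and storage time, as a block changed no call of a member: with animal and time, liver exceeded heart by 5.73, 4.51, 2.32 and 5.32 and brain by 6.36, 4.65, 4.19 and 5.41 in the order miR-192-5p, miR-194-5p, miR-148a-3p and miR-802-5p. In that block 3 and 4 members were called for the RT liver slope minus that of heart and brain. RT and 4 °C come from different animals and cannot be paired. Signals near the background limit miR-802-5p outside liver.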

Other observations

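Each member was measured by a pair of probes. After scaling to the 75th percentile, the difference of intact liver and heart was 6.17 and 6.48 for miR-192-5p, 5.27 and 5.10 for miR-194-5p and 2.89 and 3.06 for miR-148a-3p; miR-802-5p was not detected in heart, and no difference is given for it. On the heart array that was set aside, 215 miRNAs were detected. With VSN over all 46 arrays it had miR-192-5p at 2.62 and miR-194-5p at 2.04, neither detected, where the other heart arrays at 4 °C had 5.35 to 5.82 and 5.33 to 5.69, and miR-148a-3p at 3.96, detected, where the others had 7.21 to 7.81.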
